A study of Mus musculus with 6 samples.

Results

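Small RNA sequencing profiles of mouse fat were read for the paralogous miRNA clusters that encode miR-23a, miR-27a and miR-24-2 on one chromosome and miR-23b, miR-27b and miR-24-1 on another. The members were the rows of the deposited table with 9 listed arm names, and all 9 were found among its 1251 miRNA arms. An arm is 1 of the mature strands cut from a hairpin, named 5p or 3p after its side. All 6 libraries came from C57BL/6J mice, an inbred laboratory strain, whose diets began at 5 to 6 weeks of age and lasted 11 weeks. Fat supplied 45% of the energy in their high fat diet, carbohydrate 35% and protein 20%. Sample titles and the series' design text add 6.75% eicosapentaenoic acid (EPA), an omega-3 fatty acid, to that diet. The mice were fasted for 4 hours before tissue was taken. The groups were therefore 3 libraries of interscapular brown fat (BF-EPA, numbered 3, 4 and 5) and 3 of inguinal subcutaneous fat (SUB-EPA, numbered 1, 3 and 8), both from mice given EPA. The labels give no genetic change. The series concerns the effect of EPA on fat, but both groups used here received it, and the comparison is between depots. The labels do not say whether the libraries came from separate mice or whether the depots share mice, so p-values measure only the spread between these libraries.

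MiRNAs are cut by Drosha and Dicer from hairpins in longer transcripts, and one arm is usually kept in the silencing complex while the other is degraded. The kept arm finds target messages mainly through its seed, bases 2 to 8. In vertebrates miR-23, miR-27 and miR-24 are encoded side by side in a pair of paralogous clusters, here called a and b. MiR-27 restrains the formation of fat cells, in part by repressing Pparg, and miR-27b represses Prdm16, a regulator of brown fat identity. Members of the clusters are also abundant in endothelium, where they act on vessel growth.

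Cluster a lies on the plus strand of chromosome 8 and spans 404 bp (GRCm38, 84208518 to 84208921), with the hairpins Mir23a, Mir27a and Mir24-2. In the annotation Mir23a and Mir27a overlapped no other gene, and the end of Mir24-2 ran into an exon of the long noncoding RNA Gm26532. Cluster b spans 792 bp on the plus strand of chromosome 13 (63300484 to 63301275), with Mir23b, Mir27b and Mir24-1. It lies within 2010111I01Rik, which encodes an aminopeptidase, and opposite an intron of Fancc. Mir23b was intronic in all annotated transcripts of 2010111I01Rik, Mir27b overlapped an exon of 1 of them and Mir24-1 exons of 4. Both miR-24 hairpins have a miR-3074 hairpin on the opposite strand.

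**Figure D1:**
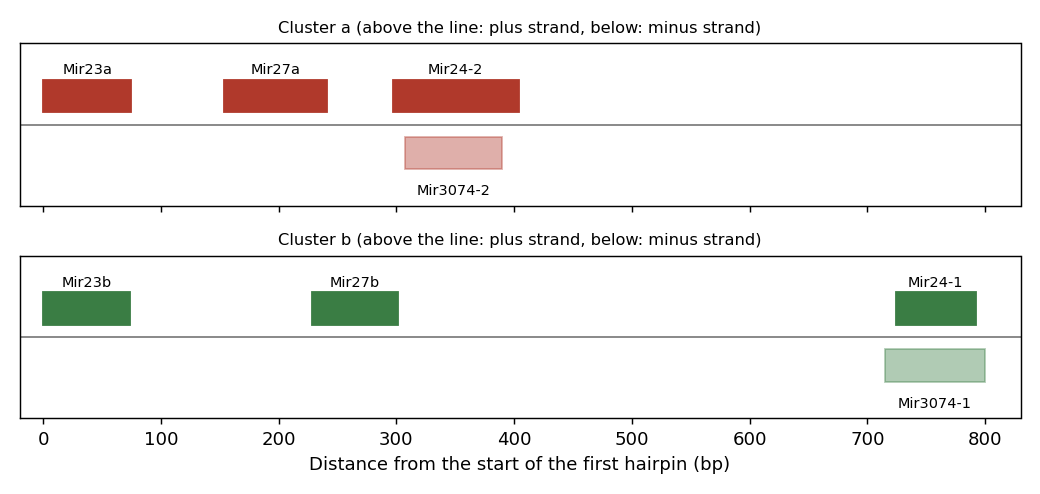
Hairpins of cluster a (top, red) and cluster b (bottom, green), as distance in bp from the start of the first hairpin, with miR-3074 hairpins of the minus strand in pale boxes. The order of hairpins is shared, and the span is 404 bp in cluster a and 792 bp in cluster b.

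The mature sequences below are shown because the levels of paralogs can be read only as far as their sequences differ. They are RefSeq entries on GRCm38.p6, 5′ to 3′, with the seed in capitals. The sequence table matched 8 of the 9 members, miR-23b-3p being the other.
miR-23a-3p: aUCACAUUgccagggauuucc
miR-27a-3p: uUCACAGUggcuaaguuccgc
miR-27b-3p: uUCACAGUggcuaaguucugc
miR-24-3p: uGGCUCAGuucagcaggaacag
miR-27a-5p: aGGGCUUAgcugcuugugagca
miR-27b-5p: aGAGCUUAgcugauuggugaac
miR-24-1-5p: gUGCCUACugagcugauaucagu
miR-24-2-5p: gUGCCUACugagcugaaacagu

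These 8 arms are 21 to 23 bases long, so length hardly enters a comparison of their levels. MiR-27a-3p and miR-27b-3p differ by 1 substitution, C19U, counted from 1 at the 5′ end and outside the seed. The seeds of miR-23a-3p and miR-27a-3p differ by U7G. The 5p arms of miR-27 differ within the seed as well, by G3A, and at 7 further positions, so their reads are more easily told apart. MiR-24-1-5p and miR-24-2-5p share their first 16 bases and their seed. MiR-24-3p is cut from Mir24-1 and Mir24-2 with the same sequence, and its level is that of both loci together. The Mir23b hairpin (chr13:63300484-63300557, plus strand) is shown for the stretch it shares with miR-23a-3p, in capitals, which covers the first 18 of the 21 bases of that arm.
Mir23b hairpin: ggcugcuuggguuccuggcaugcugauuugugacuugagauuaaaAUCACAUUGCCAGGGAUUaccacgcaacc

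The 3p arms of both clusters were present in every library and stood lower in brown than in subcutaneous fat, apart from miR-27b-3p, whose difference did not pass the test. Of the 8 members that passed the filter on low values, 5 were lower and 1 was higher in brown fat (limma, adjusted p at or under 0.05). The higher one, miR-27a-5p, passed that filter only through its brown values. Among all 269 tested miRNAs, 35.7% were lower and 33.5% higher, so calls in both directions were common in this comparison. The median log2 difference, brown minus subcutaneous, was -1.38 over the 8 members and -0.45 over all tested miRNAs. The remaining member, miR-24-1-5p, was listed at the floor of the table (3.32 on the log2 scale) in all 6 libraries and was not tested. In bulk tissue, fewer cells of a type and less of a miRNA per cell cannot be told apart.

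**Figure D2:**
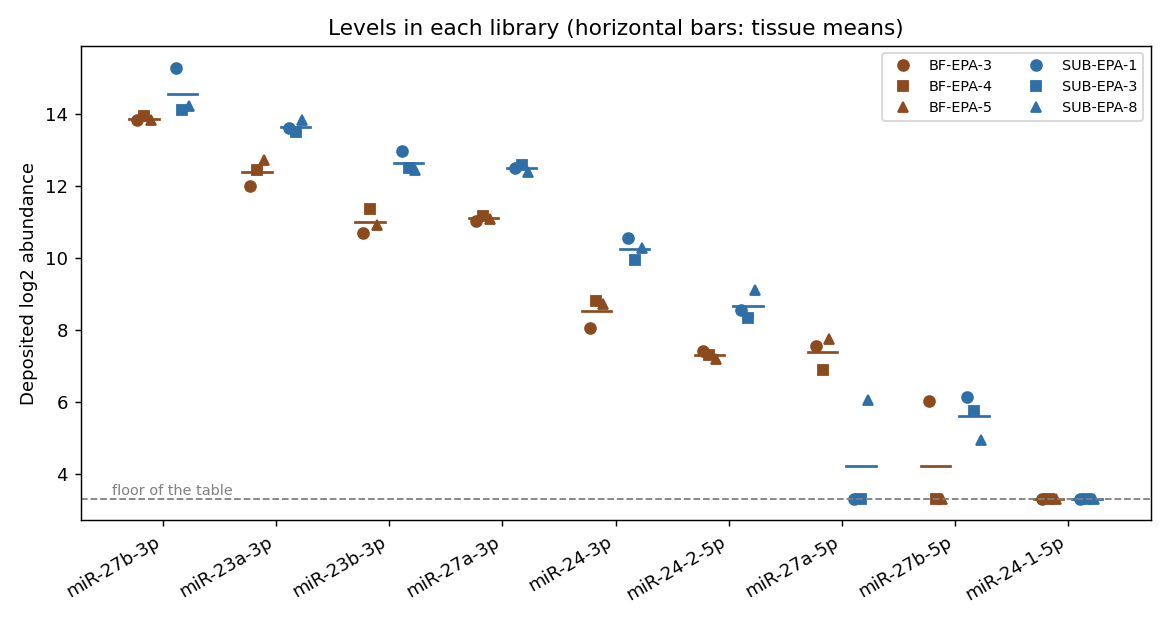
Deposited log2 abundance of the 9 members in each library, with brown libraries in brown, subcutaneous libraries in blue, and horizontal bars for tissue means. MiR-27b-3p is the highest member in every library, and miR-27a-5p is the one member with all 3 brown values above all 3 subcutaneous values.

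The order of levels was led by miR-27b-3p, a 3p arm of cluster b and the main miR-27 arm of both depots. It held ranks 28 to 29 of the table in brown fat and ranks 15 to 25 in subcutaneous fat. Next came miR-23a-3p, with a brown mean of 12.40 ± 0.37 (SD, n = 3) and a subcutaneous mean of 13.66 ± 0.17. MiR-27a-3p and miR-23b-3p followed, and their ranges overlapped in both depots, so that neither was placed above the other. MiR-24-3p, a strand made from both clusters, stood below all 4 of them in each library. In brown fat miR-27a-5p and miR-24-2-5p overlapped in range below it, whereas in subcutaneous fat miR-24-2-5p lay above both 5p arms of miR-27. The 9 members together made up 0.963% to 1.12% of the summed linear values in brown libraries and 1.77% to 2.86% in subcutaneous libraries. MiR-27b-3p alone made up 55.6% to 63.2% of that member total in brown fat and 41.3% to 58.6% in subcutaneous fat.

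In cluster a, both 3p arms were lower in brown fat. MiR-23a-3p, whose family is studied for its part in vessel growth, stood at 12.00, 12.45 and 12.74 in BF-EPA 3, 4 and 5 and at 13.63, 13.51 and 13.84 in SUB-EPA 1, 3 and 8 on the log2 scale. All 3 brown values lay below the subcutaneous ones. The log2 difference was -1.26 ± 0.22 SE, or 2.40-fold (n = 3 per depot, limma adjusted p = 0.0025), and -0.74 (adjusted p = 0.0188) with each library's trend with GC content removed. MiR-27a-3p, which restrains fat cell formation, stood at 11.05, 11.18 and 11.10 in brown and at 12.50, 12.59 and 12.40 in subcutaneous fat. Its values were tight within each depot, with SDs of 0.06 and 0.09. The log2 difference was -1.39 ± 0.14 SE, or 2.62-fold (limma adjusted p = 0.000197), the smallest adjusted p of any member.

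In cluster b, miR-23b-3p and miR-27b-3p gave different calls. MiR-23b-3p stood at 10.70, 11.38 and 10.93 in the brown libraries and at 12.98, 12.50 and 12.45 in the subcutaneous ones, with no overlap. It was 3.12-fold lower in brown fat (log2 difference -1.64 ± 0.24 SE, limma adjusted p = 0.0014). That call was lost when the GC trend was removed (-0.59, adjusted p = 0.0587), with the 3′ side of the Mir23b hairpin standing in for the mature sequence. MiR-27b-3p stood at 13.84, 13.94 and 13.84 in brown and at 15.30, 14.11 and 14.24 in subcutaneous fat. The groups did not overlap, but SUB-EPA 1 lay more than a log2 unit above the other 2 subcutaneous libraries. The log2 difference was -0.68 ± 0.32 SE (limma adjusted p = 0.097). Without SUB-EPA 1 it was smaller, at -0.30, and passed the test (adjusted p = 0.0441), and with median-of-ratios scaling it was -0.25 (adjusted p = 0.516). With the GC trend removed it was smallest, at -0.16 (adjusted p = 0.64).

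SUB-EPA 1 also stood apart in miRNAs of epithelium. The summed linear level of the 6 listed epithelial miRNAs was 39186 there, 299 and 411 in the other subcutaneous libraries, and 267 to 387 in brown fat. All 6 were above the floor in that library, and miR-205-5p, an epithelial miRNA, stood at 15.02 in it against 7.35 and 5.74. Their part in the level of miR-27b-3p was not tested.

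MiR-24-3p, the arm shared by both clusters, was lower in brown fat as well. It stood at 8.07, 8.82 and 8.73 in BF-EPA 3, 4 and 5 and at 10.56, 9.95 and 10.29 in SUB-EPA 1, 3 and 8. Every brown value was more than a log2 unit below every subcutaneous one. The log2 difference was -1.73 ± 0.29 SE, or 3.32-fold (limma adjusted p = 0.0021). Its sequence does not say which locus the reads came from, but the 5p arms do differ between the loci. MiR-24-2-5p of cluster a stood at 7.42, 7.32 and 7.22 in brown and at 8.56, 8.35 and 9.12 in subcutaneous fat, again with no overlap. It was 2.57-fold lower in the brown depot (log2 difference -1.36 ± 0.28 SE, limma adjusted p = 0.0051). MiR-24-1-5p of cluster b was at the floor in all 6 libraries.

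The 5p arms of miR-27 did not follow their 3p partners in cluster a. MiR-27a-5p, the usually discarded arm of Mir27a, stood at 7.57, 6.90 and 7.75 in the brown libraries, and at 6.06 in SUB-EPA 8. In SUB-EPA 1 and 3 it was listed at the floor. It was the only tested member called higher in brown fat (log2 difference 3.17 ± 0.82 SE, limma adjusted p = 0.0126), a size that rests on the 2 values at the floor and is given without a fold. It passed the filter on low values only through the brown libraries, where it was high, so its call is not independent of that filter. The call was lost without BF-EPA 3 (adjusted p = 0.0527) or BF-EPA 5 (0.0566), and the difference was 1.71 with 40 added to the linear values. MiR-27b-5p of cluster b was above the floor in all 3 subcutaneous libraries, at 6.16, 5.76 and 4.95, but in brown fat only in BF-EPA 3, at 6.04. Its log2 difference of -1.40 ± 0.87 SE did not pass the test (limma adjusted p = 0.19). Without BF-EPA 3 the difference was -2.30 (adjusted p = 0.014). MiR-27b-5p passed the filter through its subcutaneous values together with its value in BF-EPA 3. The values of neither depot alone would have reached it.

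**Figure D3:**
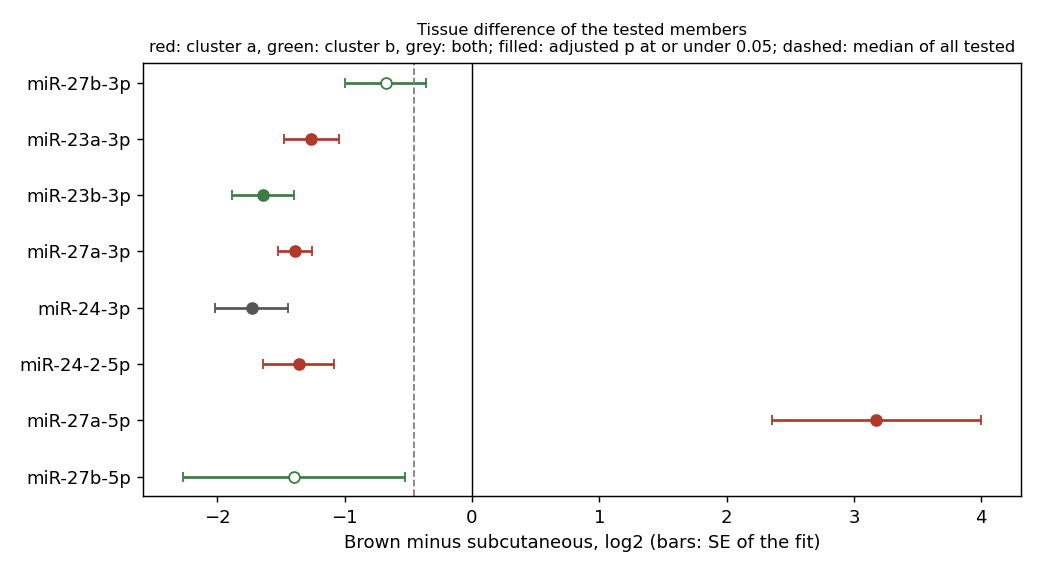
Brown minus subcutaneous log2 difference of the 8 tested members (red for cluster a, green for cluster b, grey for both), with the SE of the fit as bars, filled points for adjusted p at or under 0.05 and a dashed line at the median of all tested miRNAs (-0.45). MiR-27a-5p lies at 3.17, and the other 7 members lie below 0.

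Non-overlap gave nearly the same picture as the test. For 6 of the 8 tested members the 3 brown values lay wholly below the 3 subcutaneous values, which held for 40.1% of all tested miRNAs. For miR-27a-5p, which passed the filter only through its brown values, they lay wholly above, as for 33.8% of all tested miRNAs. MiR-27b-5p was the member whose groups overlapped.

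The arms of a hairpin were next set against each other within each library. Of the linear values of both Mir27a arms, miR-27a-5p made up 7.86%, 4.55% and 8.63% in BF-EPA 3, 4 and 5 and 1.04% in SUB-EPA 8, and it was listed at the floor in the other 2. Since 2 libraries were at the floor, this arm ratio was not tested. MiR-27b-5p made up at most 0.380% of the Mir27b arms in any library. For miR-24 the arms were nearer to each other, and miR-24-3p exceeded miR-24-2-5p on the log2 scale by a brown mean of 1.22 ± 0.49 (SD, n = 3) and a subcutaneous mean of 1.59 ± 0.42. The exact permutation p for that arm difference was 0.4 (two-sided, adjusted p = 0.5), and 0.1 is the smallest that 3 against 3 libraries can give.

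The paralogs were compared in the same way. In every library miR-23a-3p exceeded miR-23b-3p, and miR-27b-3p exceeded miR-27a-3p, so the a paralog led for miR-23 and the b paralog for miR-27. The difference of miR-23b-3p minus miR-23a-3p had a brown mean of -1.39 ± 0.38 (SD, n = 3) and a subcutaneous mean of -1.01 ± 0.37, with overlapping values (exact permutation p = 0.4, adjusted p = 0.5). That of miR-27b-3p minus miR-27a-3p was 2.77 ± 0.02 in brown fat and 2.05 ± 0.66 in subcutaneous fat (exact permutation p = 0.4, adjusted p = 0.5). SUB-EPA 1, at 2.79, lay with the brown libraries, while SUB-EPA 3 and 8 lay at 1.52 and 1.84. The depot difference of this ratio was 0.71, and 0.45 to 1.08 when 1 library was left out.

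A pair of further ratios, between neighbours in a cluster, was chosen after the values were seen, which made 5 ratios in the family. In cluster a, miR-27a-3p minus miR-23a-3p averaged -1.29 ± 0.34 in brown fat and -1.16 ± 0.26 in subcutaneous fat (SD, n = 3, exact permutation p = 0.6, adjusted p = 0.6). In cluster b, miR-27b-3p minus miR-23b-3p was 3.13, 2.56 and 2.91 in brown fat and 2.31, 1.61 and 1.79 in subcutaneous fat. All 3 brown values lay above the subcutaneous ones, a difference of 0.97 with the smallest p the design can give (exact permutation p = 0.1, adjusted p = 0.5). No ratio passed a threshold of 0.05, which this design cannot reach.

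**Figure D4:**
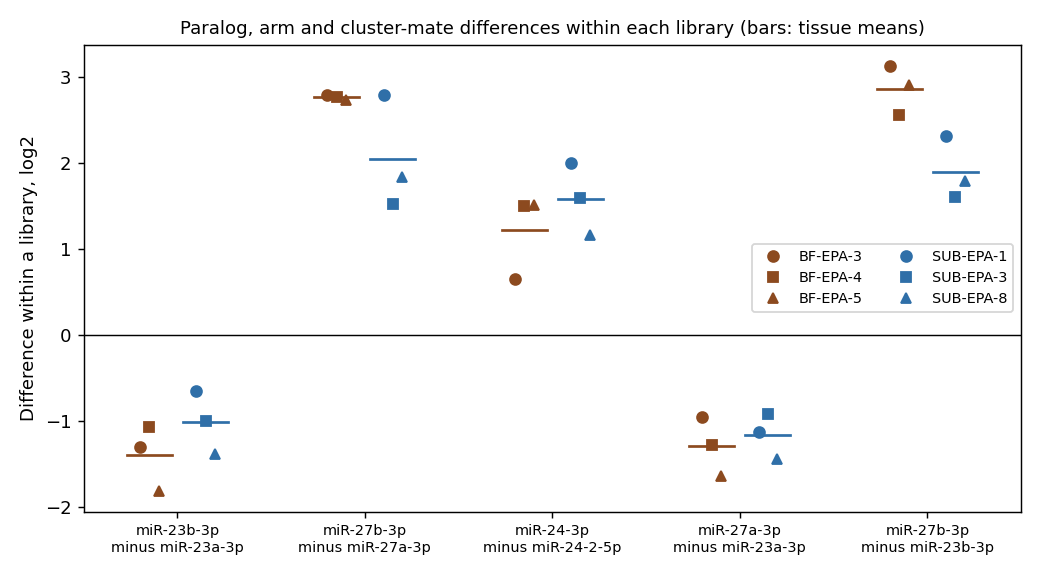
Log2 differences between 2 members within each library, for the 5 ratios with no value at the floor, brown libraries in brown and subcutaneous in blue, bars for tissue means. The last ratio, miR-27b-3p minus miR-23b-3p, is the one whose groups do not overlap.

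Reads of near-identical paralogs can be split between them in mapping, so the paralogs were also summed on the linear scale before the fit. The sum of miR-23a-3p and miR-23b-3p stood 2.60-fold lower in the brown depot, with a log2 difference of -1.38 ± 0.20 SE (3 libraries per depot, limma adjusted p = 0.00117). The sum of miR-27a-3p and miR-27b-3p had a log2 difference of -0.81 ± 0.27 SE (limma adjusted p = 0.0333). It no longer passed after median-of-ratios scaling (-0.38, adjusted p = 0.256) or without any one brown library (adjusted p 0.0835 to 0.101), and was -0.50 without SUB-EPA 1 (adjusted p = 0.00805).

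Other arms of both loci were mostly at the floor. MiR-23a-5p, miR-23b-5p and the miR-3074 arms from the opposite strand were listed at the floor in all 6 libraries. On chromosome 8, miR-181c and miR-181d lie in an intron of Nanos3 on the minus strand (Mir181c at 84178873 to 84178961). Of the 9 listed arms of the loci and these neighbours, 3 were tested, 2 were lower in brown fat and 0 higher, beside 35.7% lower and 33.5% higher among all tested miRNAs. MiR-181c-5p had a log2 difference of -1.31 ± 0.21 SE (limma adjusted p = 0.0020), and miR-181d-5p, at the floor in 2 brown libraries, stood at 7.04 to 8.22 in subcutaneous fat (adjusted p = 0.0082). MiR-181c-3p did not pass the test (-0.58, adjusted p = 0.286).

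MiR-128-3p is the relative with an offset seed: its seed is contained in bases 3 to 9 of miR-27. It stood at 7.57, 9.23 and 7.40 in brown fat and at 7.78, 8.75 and 7.75 in subcutaneous fat, with a log2 difference of -0.03 ± 0.57 SE (limma adjusted p = 0.96). Its highest values were in BF-EPA 4 and SUB-EPA 3. Those were also the libraries with the highest summed linear level of the listed skeletal muscle miRNAs, 151209 and 123084 against 1264 to 10308 in the other 4. MiR-1a-3p of that list was at the floor in all 6. Without those 2 libraries the members called lower remained 5 in number, and miR-27a-5p no longer passed (2.97, adjusted p = 0.093).

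Like miR-27, several other miRNAs are reported to restrain adipogenesis. Of the 10 listed, 6 were tested, of which 5 were lower in brown fat and 0 higher, with a median log2 difference of -2.06. Over all tested miRNAs 35.7% were lower and 33.5% higher, with a median of -0.45, and nothing particular to these 6 is read from their count. MiR-130a-3p, which represses Pparg as miR-27 does, stood at 8.53 to 8.92 in brown and 11.48 to 11.88 in subcutaneous fat (-3.00 ± 0.20 SE, limma adjusted p = 4.9e-05). MiR-221-3p, a regulator of vessel and fat cell growth, had a log2 difference of -2.48 ± 0.33 SE (adjusted p = 0.00094). MiR-138-5p was listed at the floor in all 3 brown libraries and stood at 7.32 to 8.23 in subcutaneous fat. MiR-222-3p did not pass the test (-0.90, adjusted p = 0.059).

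Some listed markers of other cell types also differed between the depots, while none of the 3 tested skeletal muscle and 4 tested epithelial miRNAs was called. Both listed arms of miR-126, an endothelial miRNA, were lower in brown fat, and their summed linear level was 3224 to 3803 in brown and 9901 to 12592 in subcutaneous libraries. The log2 difference of miR-126-3p was -2.04 ± 0.17 SE (limma adjusted p = 0.00011). Of the 4 tested leukocyte arms 3 were lower and 1, miR-150-5p, was higher. The lower ones were miR-223-3p (log2 difference -5.51), miR-146a-5p (-3.10) and miR-142-5p (-2.08). MiR-223-3p and miR-146a-5p had brown values at the floor. MiR-150-5p stood at 15.02 to 15.47 in brown and 13.69 to 14.24 in subcutaneous fat on the log2 scale. The summed level of the leukocyte arms was 33362 to 45420 in brown and 15051 to 20196 in subcutaneous libraries. That sum was mostly miR-150-5p in every library, so it ran the other way from the 3 lower arms. All 4 listed brown fat miRNAs were higher in brown fat. Of the 2 tested red cell miRNAs, miR-486-5p was higher (log2 difference 2.95) and miR-451a lower (-1.49). These counts stand beside the 35.7% lower and 33.5% higher among all tested miRNAs. The part of endothelial cells or leukocytes in the members' differences was not tested.

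For 6 members above the floor in all libraries, the miRNAs with the closest profile over the 6 libraries were sought among the tested miRNAs outside the 9 members, so that fellow members were left out of the search. Likeness was the Euclidean distance between log2 profiles centred on their own mean, so that 0 is an identical pattern. MiR-23a-3p lay nearest to miR-16-5p (distance 0.23) and miR-100-5p (0.40), and miR-23b-3p to miR-99a-5p (0.58) and miR-181c-5p (0.59). MiR-24-3p was also nearest to miR-99a-5p (0.24), then to miR-10a-5p (0.54). MiR-27a-3p lay nearest to miR-1839-5p (0.38) and miR-25-3p (0.47), and miR-24-2-5p to miR-148a-3p (0.36) and miR-1839-5p (0.52). MiR-27b-3p lay nearest to miR-181c-3p (0.38) and miR-342-3p (0.47). The median distance from a member to all tested non-members was 2.89 to 3.13.

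Of 16 alternative settings, each that could test the 5 members called lower left their calls in place, apart from miR-23b-3p with the GC trend removed. No alternative changed the direction of any of the 8 tested members. The plot of alternative settings shows the widest spread for both 5p arms of miR-27, which have values at the floor.

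**Figure D5:**
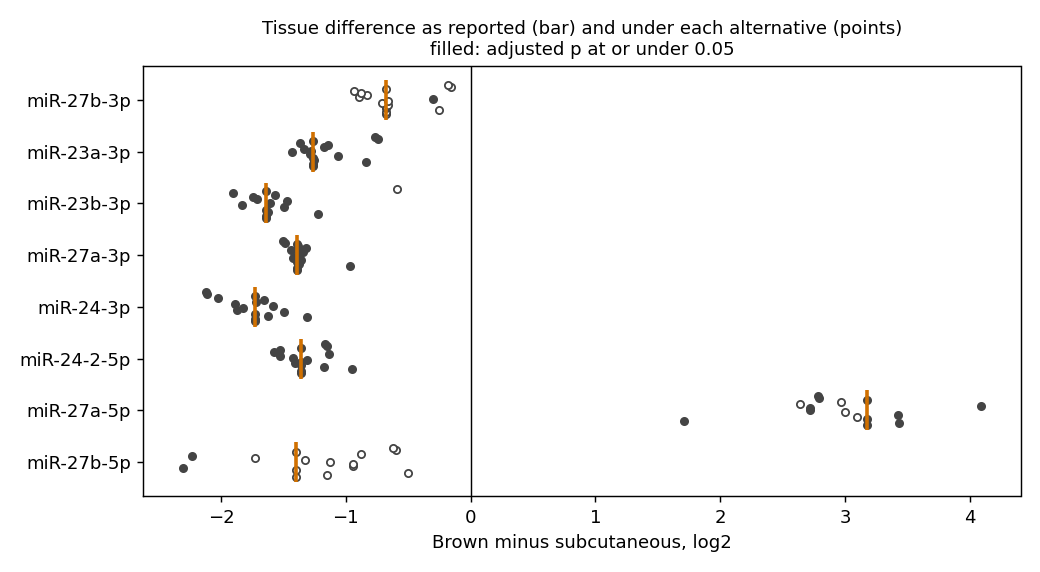
Brown minus subcutaneous log2 difference of each tested member as reported (orange bar) and under each alternative that could be fitted for it (points, filled for adjusted p at or under 0.05). MiR-27a-5p ranges from 1.71 to 4.09, miR-27a-3p from -1.50 to -0.97.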

How the data were processed

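Small RNA libraries were made from total RNA of frozen tissue with an Illumina protocol, per the labels' protocols. Per the series' design text, the authors used the Gunaratne Next Generation pipeline, mapped reads to mm10, scaled counts to total usable reads and added 40. Which aligner and miRNA annotation were used is not given in the sources used here. Values in the deposited table are log2, with a floor of 3.32 (10 on the linear scale), 910 of 1251 arms at the floor in all libraries, and nearly the same values at the same rank in every library. No step that equalises distributions is named, and an added 40 is not visible. A difference is therefore relative to the rest of its library. Depth is stated as 13.8 M mapped reads per sample, the same figure for every library, so separate depths of the libraries are unknown. No counting interval or limit is given.

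MiRNAs with a mean of at least 24.05 linear units above the floor were tested, 269 in all, with limma 3.58.1 in R 4.3.3 (mean-variance trend, Benjamini-Hochberg). Within-library ratios were compared with exact permutation tests (scipy 1.17.1, Python 3.11.15). The fit was tested on simulated data. Hairpins were placed with GENCODE M21 (GRCm38, the files' mm10), and sequences are from RefSeq on GRCm38.p6. GC content came from mature sequences for 229 tested miRNAs (85.1%). All 9 members are described. Beyond them, the rule named the 2 closest profiles per member and, per list, at most 3 tested miRNAs ranked by size of difference. MiR-222-3p, miR-150-5p, miR-205-5p, miR-126-3p and miR-1a-3p were named after their values were seen. Members and lists were chosen with earlier results of these data known.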

Additional observations from a re-analysis of the deposited data

How the results depend on the processing

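The alternatives were other filters, median-of-ratios scaling, 40 added to the linear values, no mean-variance trend, removal of each library's GC trend, leaving out each library or both numbered 3, and a replicate block. GC removal with a hairpin stand-in and leaving out the 2 libraries highest in muscle miRNAs were chosen after seeing the data. Of 125 recomputed member differences, 117 kept their direction and call, 5 lost and 3 gained one, and 0 reversed. The number of members higher in brown fat fell from 1 to 0 with the filter 10 times as strict (miR-27a-5p was not tested there), without both libraries numbered 3 (adjusted p = 0.132 for miR-27a-5p) and without the 2 libraries highest in muscle miRNAs, and was 0 to 1 when 1 library was left out. Without both libraries numbered 3, miR-27b-5p was called lower (-2.24, adjusted p = 0.0425). The sum of miR-27a-3p and miR-27b-3p was -0.38 with median-of-ratios scaling and -0.97 to -0.50 without 1 library. The ratio of miR-27a-3p to miR-23a-3p turned from -0.13 to 0.0463 without BF-EPA 5, in a range of -0.2956 to 0.0463, and was never past a threshold. The cause of these changes was not tested. Median-of-ratios scaling moved the median of all tested miRNAs from -0.45 to -0.09. The differences of the 5 members called lower shrank with it but were still called. They were -0.84 for miR-23a-3p, -1.22 for miR-23b-3p, -0.97 for miR-27a-3p, -1.31 for miR-24-3p and -0.95 for miR-24-2-5p. That of miR-27a-5p rose to 3.43. The stricter filter left 157 miRNAs, of which 58 were higher in brown fat. The source names number the brown and subcutaneous libraries 4 to 6, while the titles number them otherwise. Deviations of libraries with the same source-name number correlated at 0.04, 0.18 and 0.07, and those of the other combinations at -0.24 to 0.15. BF-EPA 4 and SUB-EPA 3, the 2 libraries highest in muscle miRNAs, share source-name number 5. With 3 libraries per depot these values cannot decide whether the numbers mark pairs. The main fit did not use them as pairs, and with these numbers as the replicate block 5 members were lower and 1 higher.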
